A study of Mus musculus with 5 samples.

Results

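The miR-148 and miR-152 family of the mouse is described here in extracellular vesicles (EVs), small membrane-bound particles that cells release with RNA inside. Its members were taken by name: the 3 guide strands mmu-miR-148a-3p, mmu-miR-148b-3p and mmu-miR-152-3p, and the strand opposite the first, mmu-miR-148a-5p. They are 4 of the 1966 miRNAs in the deposited count table. The vesicles came from mesenchymal stem cells of C57BL/6-GFP transgenic mice, kept for 48 h in reduced-serum medium, and were pelleted at 100000 g. Freeze-dried EVs (n = 3 libraries) were deep-frozen in 25 mM trehalose, dried overnight and taken up in water. Not freeze-dried EVs (n = 2 libraries) came from the same kind of cells and preparation, and the labels' protocols name trehalose among the storage buffers of all vesicles. The labels name no separate cultures behind the libraries of a group, so the library-to-library spread that enters a p-value here may be technical. The series asks whether freeze-drying alters the miRNA content of the vesicles.

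A miRNA is cut from a hairpin-shaped RNA as a duplex of a 5p and a 3p strand. The guide strand is kept in an Argonaute protein and leads it to messenger RNAs that pair with its seed, while the passenger strand is mostly degraded. The family is known for repressing DNA methyltransferase genes, among them Dnmt1. In human cells miR-148a also targets transcripts of HLA-C, HLA-G and the LDL receptor. miR-148a is abundant in liver and pancreas and has been studied in fat and bone differentiation of mesenchymal cells.

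The guide strands are shown first, since they define the family and could be confused with one another in counting. Capitals mark the seed, bases 2 to 8 counted from the 5′ end. All sequences are from RefSeq on GRCm38.p6, where all 4 members matched by name.
mmu-miR-148a-3p: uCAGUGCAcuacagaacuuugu
mmu-miR-148b-3p: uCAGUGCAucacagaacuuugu
mmu-miR-152-3p: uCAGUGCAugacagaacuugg

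The 3 guide strands shared the seed CAGUGCA, which no other of the 1679 mature entries in the RefSeq table held at those positions. From miR-148a-3p to miR-148b-3p the letters differed by C9U and U10C over 22 bases. From miR-148a-3p to miR-152-3p they differed by C9U, U10G and U20G over 21 bases, and from miR-148b-3p to miR-152-3p by C10G and U20G. How reads with several matches were treated is not given in the sources used here, so some reads may have been split between these near-identical strands.

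The hairpins are shown because both strands of each were searched for counts, and capitals mark the 5p and the 3p strand.
Mir148a: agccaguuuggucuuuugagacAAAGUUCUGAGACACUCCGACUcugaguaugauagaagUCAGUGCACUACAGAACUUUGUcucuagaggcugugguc
Mir152: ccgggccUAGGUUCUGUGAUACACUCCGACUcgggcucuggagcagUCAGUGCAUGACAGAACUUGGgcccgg
Mir148b: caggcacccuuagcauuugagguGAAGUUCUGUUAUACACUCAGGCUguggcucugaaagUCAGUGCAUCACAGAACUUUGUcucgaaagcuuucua

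In GENCODE M21 (GRCm38) the miR-148a hairpin lies between genes on the minus strand of chromosome 6, at 51269812 to 51269910. The miR-152 hairpin lies on the plus strand of chromosome 11, at 96850393 to 96850465, in an intron of Copz2. The miR-148b hairpin lies on the plus strand of chromosome 15, at 103285125 to 103285221, in an intron of Copz1. Copz1 and Copz2 encode alternative zeta subunits of coatomer, the coat of vesicles that move between Golgi and endoplasmic reticulum, and both run on the same strand as their miRNA.

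Total miRNA counts ranged from 192450 to 2914305 in the freeze-dried libraries, against 912080 and 131507 in the not freeze-dried ones. The 3 libraries with at least 500000 counts (freeze-dried replicates 1 and 2 and not freeze-dried replicate 1) are called deep and the other 2 shallow. Of 5 mesenchymal marker miRNAs, all were counted, and together they took 11.6% to 12.8% of the counts in freeze-dried EVs and 15.7% to 18.0% in not freeze-dried EVs. One by one, 3 were fitted higher and 2 lower in freeze-dried EVs, with a median log2 fold change of 0.25. None passed the test between groups described below. Of 5 blood cell markers 3 were counted, at 0.0216% to 0.0390% in freeze-dried EVs and 0.0297% to 0.0548% in not freeze-dried EVs, with miR-142a-3p and miR-142a-5p at 0 in every library. Of 5 markers of liver and exocrine pancreas, tissues rich in miR-148a, 4 were counted, at 0.0329% to 0.0442% in freeze-dried EVs and 0.0296% to 0.0836% in not freeze-dried EVs, with miR-217-5p at 0 throughout.

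mmu-miR-148a-3p was the leading member in 4 of the 5 libraries. It stood at 1456, 2232 and 631 CPM (read counts scaled by library size with the TMM method) in freeze-dried replicates 1, 2 and 3, against 1432 and 643 CPM in not freeze-dried replicates 1 and 2. Its raw counts behind these levels were 4008, 5753 and 111, against 1462 and 84. The groups overlapped, and the lowest value of each group came from its shallow library. By raw count it ranked 71, 63 and 104 among the miRNAs of the freeze-dried libraries, against 72 and 106 in the not freeze-dried ones.

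mmu-miR-152-3p followed, at 988, 989 and 643 CPM in freeze-dried EVs, against 1077 and 421 CPM in not freeze-dried EVs. Again the groups overlapped and the shallow libraries were the low ones. Its counts were 2718, 2548 and 113, against 1099 and 55. miR-148a-3p had 1.47, 2.26 and 0.982 times the counts of miR-152-3p in the freeze-dried libraries, against 1.33 and 1.53 times in the not freeze-dried ones. In freeze-dried replicate 3 both were thus about level.

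mmu-miR-148b-3p was the scarcest guide strand and the steadiest, at 195, 227 and 182 CPM in freeze-dried EVs, against 289 and 214.2 CPM in not freeze-dried EVs. Its counts were 537, 584 and 32, against 295 and 28. The groups overlapped. In every library it lay below both other guide strands, with miR-152-3p at 5.06, 4.36 and 3.53 times its count in freeze-dried EVs, against 3.73 and 1.96 times in not freeze-dried EVs. The order miR-148a-3p, miR-152-3p, miR-148b-3p is one of read counts of 21 to 22 base RNAs. Small RNA libraries capture different sequences unequally, so it need not be the order of molecules.

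**Figure D1:**
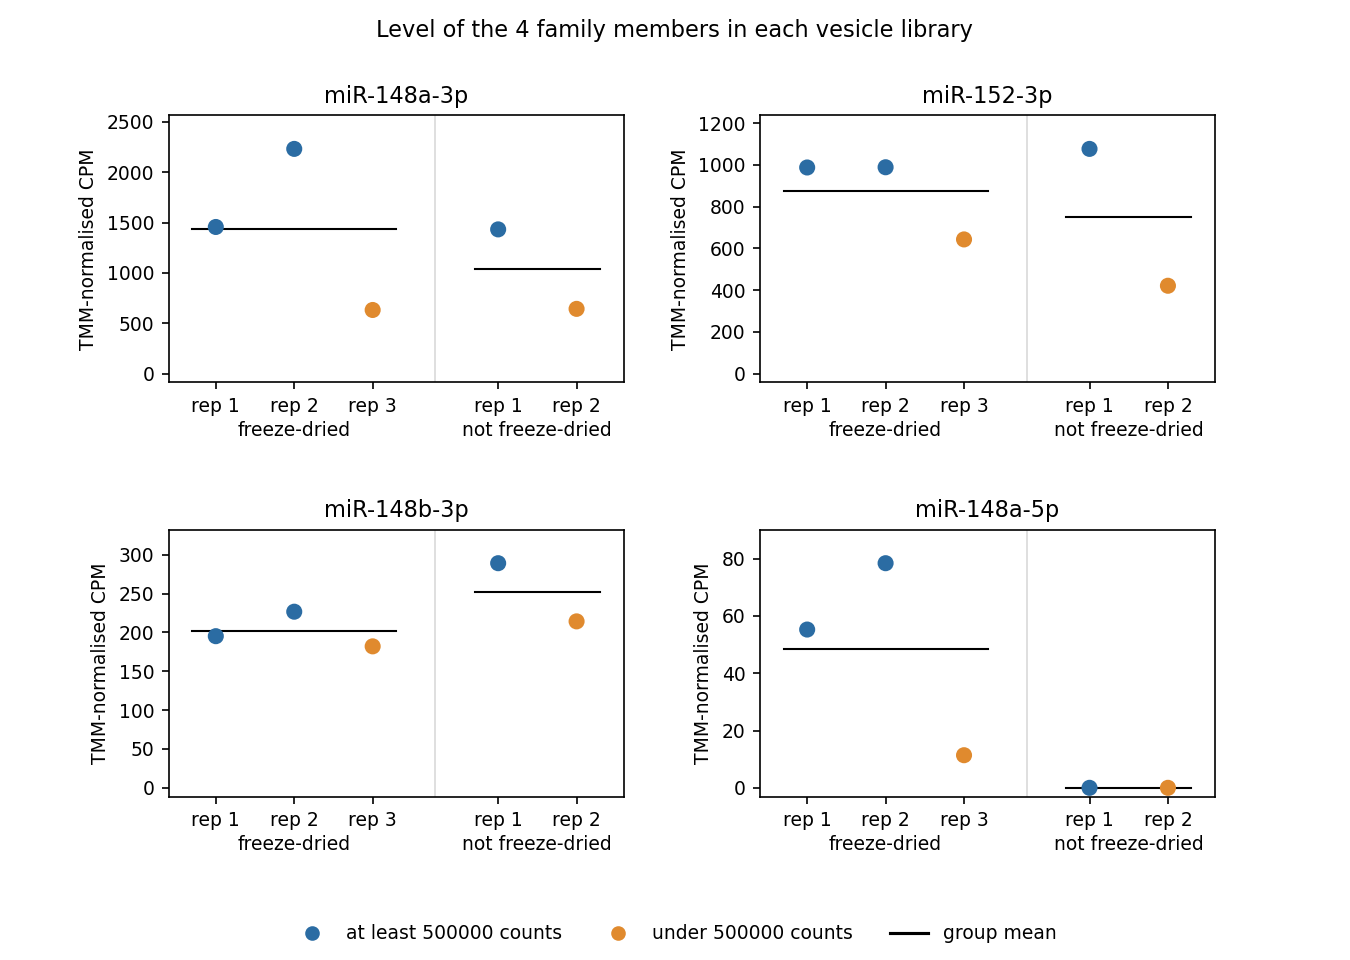
Each panel plots 1 member's TMM-normalised CPM (vertical axis, linear from 0) in the 3 freeze-dried and 2 not freeze-dried libraries, blue for deep and orange for shallow libraries, with a line at the group mean. miR-148a-3p and miR-152-3p are lowest in the orange libraries of both groups, and miR-148a-5p is at 0 in both not freeze-dried libraries.

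Freeze-drying moved none of the guide strands by more than the spread between libraries. miR-148a-3p averaged 1440.05 ± 801 CPM over the 3 freeze-dried libraries and 1037 ± 559 CPM over the 2 not freeze-dried ones (mean ± SD). On the log2 scale the fold change was 0.47 with an SE of 0.59 and a 95% interval of -0.84 to 1.78, and edgeR's quasi-likelihood test gave an adjusted p of 0.98. miR-152-3p averaged 873 ± 199.4 CPM over the freeze-dried libraries and 749 ± 464 CPM over the others, and its log2 fold change of 0.22 had an SE of 0.56 and an interval of -1.04 to 1.47 (edgeR adjusted p = 0.98). miR-148b-3p averaged 201 ± 22.9 CPM over the freeze-dried libraries and 252 ± 52.9 CPM over the others, and its log2 fold change of -0.32 had an SE of 0.95 and an interval of -2.46 to 1.81 (edgeR adjusted p = 0.98).

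These intervals leave room for sizeable changes. In folds they ran from 0.559 to 3.44 for miR-148a-3p, from 0.487 to 2.77 for miR-152-3p and from 0.182 to 3.51 for miR-148b-3p. edgeR takes the spread of each miRNA partly from the other tested miRNAs. The interval of miR-148b-3p, the widest though its CPM were the steadiest, is thus not a measure of its own spread alone. Among all 327 miRNAs that passed the low-count filter, edgeR called 0 (0%) higher and 0 (0%) lower, with 9 at an unadjusted p under 0.05. DESeq2 and limma-voom also called 0, with 16 and 15 at an unadjusted p under 0.05. The values for miR-148a-3p and miR-152-3p rest on single libraries. Without not freeze-dried replicate 2 their log2 fold changes were -0.018 and -0.34, and without not freeze-dried replicate 1 they were 1.23 and 1.12. Each of these fits keeps 1 not freeze-dried library and takes its spread from the freeze-dried ones. Without freeze-dried replicate 1, 2 or 3, the values of miR-148a-3p were 0.47, 0.0011 and 0.86, and those of miR-152-3p were 0.13, 0.10 and 0.42.

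**Figure D2:**
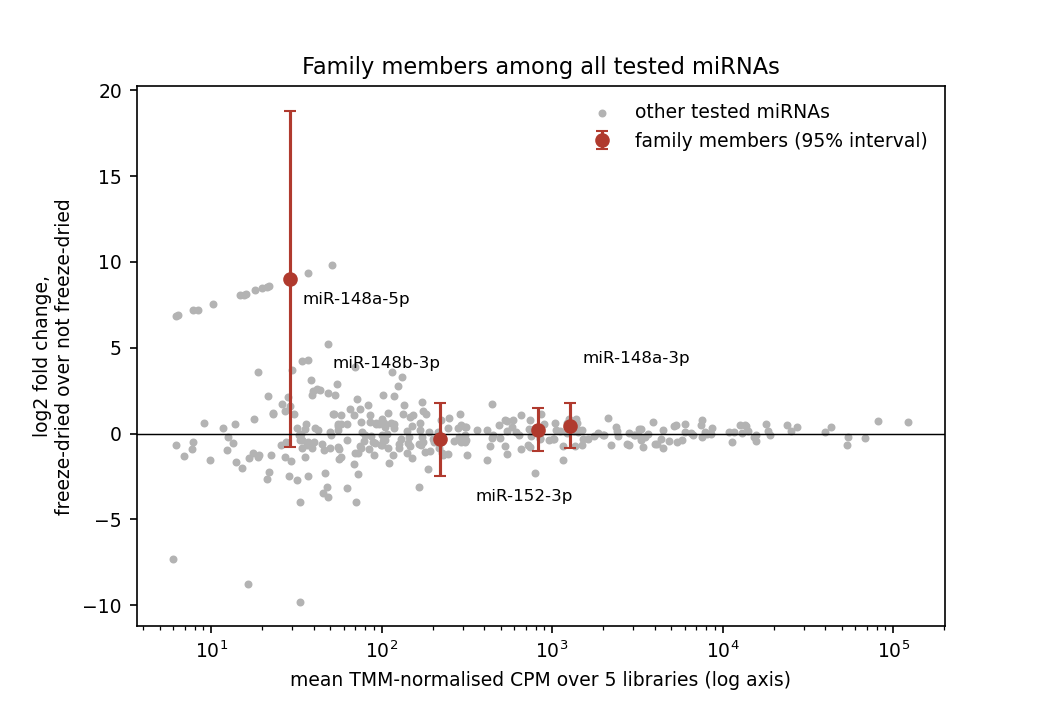
Log2 fold change of freeze-dried over not freeze-dried EVs (vertical axis) against the mean TMM-normalised CPM over 5 libraries (horizontal log axis) for all 327 tested miRNAs, with the 4 family members in red and their 95% intervals as bars. The guide strands lie near 0 among miRNAs of like abundance, and miR-148a-5p lies in the strip of miRNAs without counts in 1 group, where the fitted value depends on the model's prior and is no estimate of size.

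**Figure D3:**
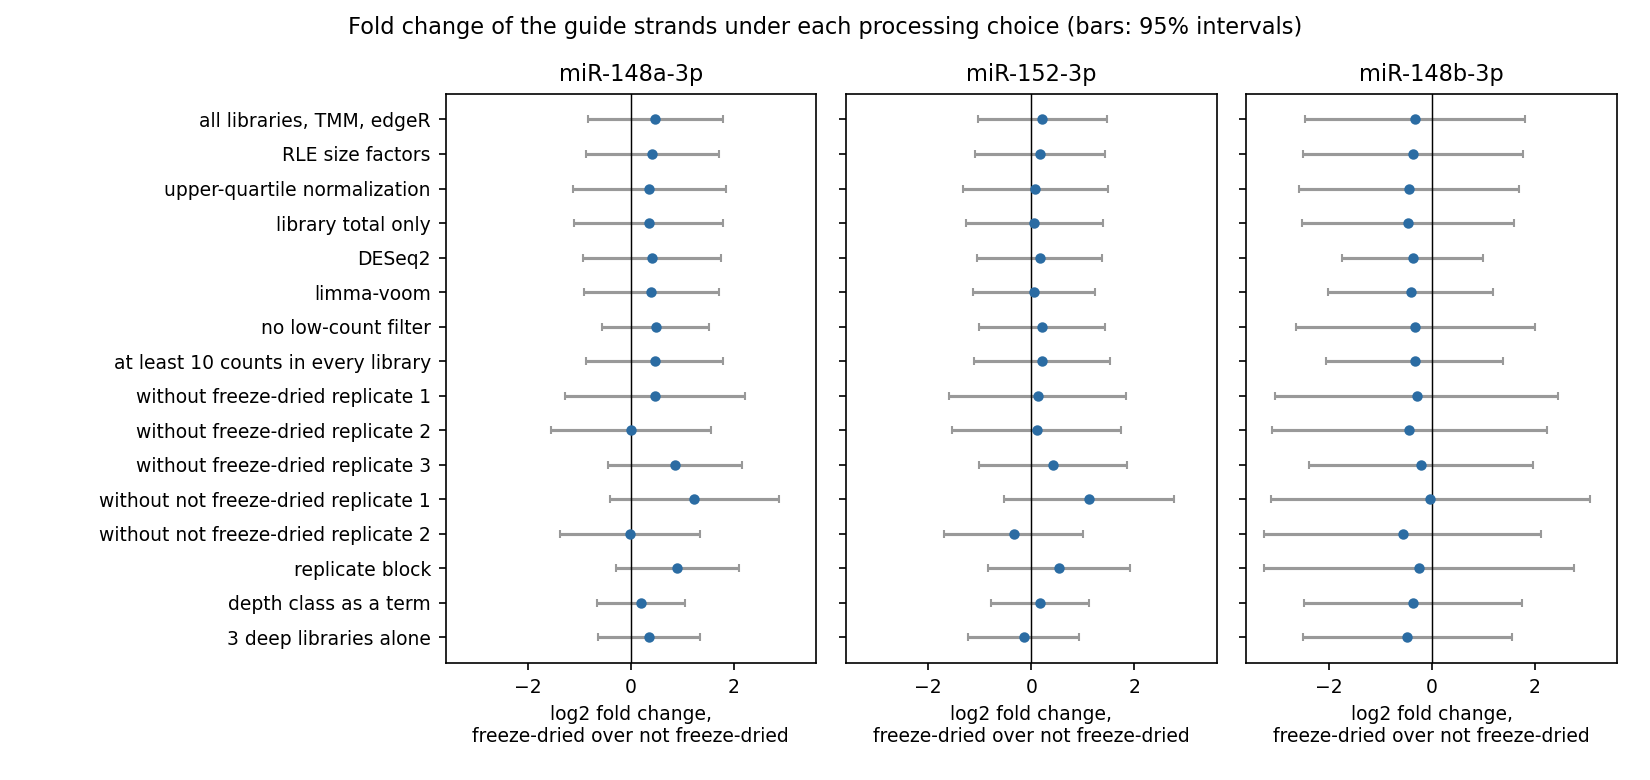
Log2 fold change of freeze-dried over not freeze-dried EVs (horizontal axis) for the 3 guide strands with 95% intervals as bars, under the chosen processing (top) and 15 alternatives. Every interval spans 0, and the points for miR-148a-3p and miR-152-3p move most when a not freeze-dried library is left out.

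Whatever their group, the shallow libraries held the lowest levels of miR-148a-3p and miR-152-3p. miR-148a-3p lay between 1432 and 2232 CPM in the 3 deep libraries, against 631 and 643 CPM in the 2 shallow ones, without overlap. With depth class and group as terms of the same edgeR fit, its log2 difference of deep over shallow libraries was 1.38 (SE 0.38, interval 0.50 to 2.26, unadjusted p = 0.0070), which did not pass the adjustment over all miRNAs (edgeR adjusted p = 0.14). With upper-quartile in place of TMM scaling it did (log2 difference 1.76, edgeR adjusted p = 0.039). It did not with RLE scaling (edgeR adjusted p = 0.12) or with library totals alone (edgeR adjusted p = 0.12). Nor did it with group left out of the fit (edgeR adjusted p = 0.061). The depth classes were chosen after these levels had been seen, so none of these fits is an independent test. miR-152-3p lay between 988 and 1077 CPM in the deep libraries, against 421 to 643 CPM in the shallow ones, a log2 difference of 0.93 (SE 0.42, edgeR adjusted p = 0.45).

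miR-148b-3p overlapped between depth classes, at 195 to 289 CPM in deep and 182 to 214.2 CPM in shallow libraries, with a log2 difference of 0.31 (SE 0.93, edgeR adjusted p = 0.99). In that fit 5 of 327 miRNAs (1.53%) were called higher and 5 (1.53%) lower in deep libraries, none of them a family member. The comparison by depth was added after the values had been seen. With depth held as a term, the log2 fold changes of freeze-dried over not freeze-dried EVs were 0.20 for miR-148a-3p (SE 0.37), 0.18 for miR-152-3p (SE 0.41) and -0.36 for miR-148b-3p (SE 0.91). What else separates shallow from deep libraries, such as the amount of RNA put in, cannot be told apart from depth here.

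As a share of all miRNA counts the family took 0.254%, 0.367% and 0.134% in freeze-dried replicates 1, 2 and 3, against 0.313% and 0.127% in not freeze-dried replicates 1 and 2. The exact binomial 95% intervals, which cover counting error only because reads are not independent molecules, were 0.360% to 0.375% for the highest library and 0.108% to 0.148% for the lowest. The groups averaged 0.252% ± 0.117 (SD, n = 3) and 0.220% ± 0.132 (SD, n = 2). The spread within each group was larger than the difference between them.

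The make-up of the family does not depend on scaling between libraries. miR-148a-3p made up 54.1%, 63.3% and 43.0% of the family's counts in the freeze-dried libraries, against 51.2% and 50.3% in the not freeze-dried ones. miR-152-3p made up 36.7%, 28.0% and 43.8%, against 38.5% and 32.9%. The freeze-dried libraries spanned the not freeze-dried ones for both strands.

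For miR-148b-3p the shares were 7.24%, 6.43% and 12.4% in freeze-dried EVs, against 10.3% and 16.8% in not freeze-dried EVs. The larger share in each group came from its shallow library. Within the deep libraries it was 7.24% (exact binomial interval 6.66% to 7.86%) and 6.43% (5.93% to 6.95%) in freeze-dried EVs, against 10.3% (9.24% to 11.5%) in not freeze-dried EVs. Within the shallow libraries it was 12.4% (8.64% to 17.1%) in freeze-dried EVs, against 16.8% (11.4% to 23.3%) in not freeze-dried EVs. These shallow intervals overlapped, on 32 of 258 counts in freeze-dried EVs against 28 of 167 in not freeze-dried EVs. The depth classes were chosen after values were seen. As a point value the share was lower in freeze-dried EVs at both depths, with 1 not freeze-dried library at each. Averaged over libraries it was 8.69% ± 3.24 in freeze-dried EVs (SD, n = 3) and 13.5% ± 4.55 in not freeze-dried EVs (SD, n = 2), a difference of -4.86 percentage points that was not tested. The groups overlapped, since shallow freeze-dried replicate 3 lay above deep not freeze-dried replicate 1.

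**Figure D4:**
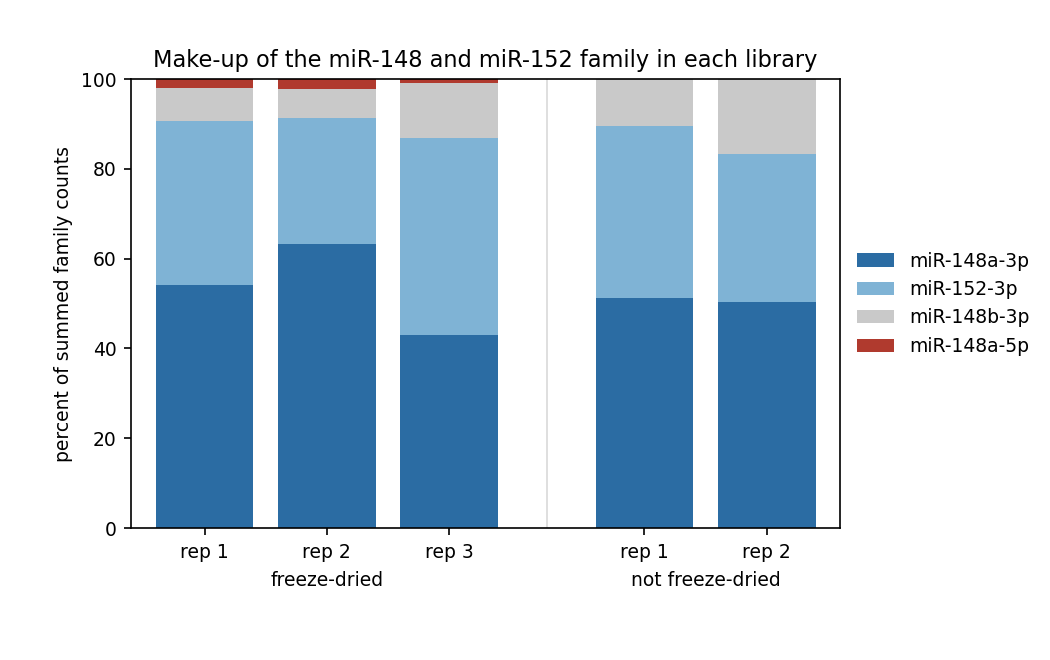
Stacked bars give each member's percent of the summed counts of the 4 members (vertical axis, 0 to 100) in the 3 freeze-dried and 2 not freeze-dried libraries. miR-148a-3p fills 43.0% to 63.3% of each bar, and the red miR-148a-5p segment appears in the freeze-dried libraries and not in the others.

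The passenger strands were seen far less often. Their sequences are shown because each is counted against its own guide strand, with bases 2 to 8 in capitals.
miR-148a-5p: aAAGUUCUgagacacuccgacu
miR-152-5p: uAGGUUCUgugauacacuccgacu
miR-148b-5p: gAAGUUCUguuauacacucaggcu

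miR-148a-5p had 152, 202 and 2 counts in freeze-dried replicates 1, 2 and 3, against 0 and 0 counts in not freeze-dried replicates 1 and 2. In CPM these were 55.2, 78.4 and 11.4, against 0 and 0, so the groups did not overlap. A count of 0 was given a limit of 3 counts. This makes 3.29 CPM, unscaled, in not freeze-dried replicate 1 and 22.8 CPM in the shallower replicate 2. At the depth of that shallowest library, freeze-dried replicates 1, 2 and 3 would have given 6.86, 10.7 and 1.37 counts. The absence from not freeze-dried replicate 1 therefore carries most of the contrast.

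Over pooled counts the freeze-dried libraries held miR-148a-5p at 63.8 CPM, unscaled. This was 22.2 times a floor of 3 counts over the not freeze-dried group, and 2.80 times it without not freeze-dried replicate 1. The ratio is no lower limit, since the 63.8 CPM is a point value and pooling leaves out the spread between libraries. Freeze-dried replicate 3 alone stood at 10.4 CPM, unscaled, under the 22.8 CPM floor of not freeze-dried replicate 2. edgeR, which takes in the spread between libraries, did not call the strand (log2 fold change interval -0.75 to 18.80, unadjusted p = 0.066, adjusted p = 0.98). The interval depended on the tool, at 1.09 to 11.99 by DESeq2 (unadjusted p = 0.019, adjusted p = 0.76) and -0.52 to 11.40 by limma-voom (adjusted p = 0.87). Neither called the strand. miR-148a-5p passed the low-count filter only through the freeze-dried libraries.

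Counts of 0 beside substantial counts were found for many miRNAs in these libraries. A count in every freeze-dried library and in no not freeze-dried one was found for 4 of 517 miRNAs with a count (0.774%), and the reverse for 4 as well. Of 299 miRNAs with at least 100 counts in a deep library, 74 (24.7%) had 0 counts in another deep library. CPM values did not overlap, higher in freeze-dried EVs, for 29 of 327 tested miRNAs (8.87%), lower for 28 (8.56%), and in either direction for 57 (17.4%).

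The 5 listed epithelial markers, all of the miR-200 family, were too scarce to be tested. Counts were found for 2 of them, in freeze-dried libraries alone: miR-200a-3p with 0, 241 and 2 in freeze-dried EVs, against 0 and 0 in not freeze-dried EVs, and miR-200b-3p with 93, 0 and 2, against 0 and 0. Each was at 0 in 1 deep freeze-dried library. miR-200c-3p, miR-141-3p and miR-429-3p were at 0 in every library. The list's summed level was 0.00208% to 0.00974% of the counts in freeze-dried EVs, against 0% in not freeze-dried EVs, and its part in the result was not tested. Of 4 other miRNAs known from epithelia, looked up after these values were seen, miR-182-5p overlapped between groups and 3 lay lower in freeze-dried EVs without passing the test. Over all 327 tested miRNAs, 28 (8.56%) lay lower without overlap, and no reading is drawn from the 4 picked here. miR-203-3p averaged 240 CPM in freeze-dried EVs and 684 CPM in not freeze-dried EVs (log2 fold change -1.51, edgeR adjusted p = 0.98). miR-183-5p averaged 2285 CPM in freeze-dried EVs and 3477 CPM in not freeze-dried EVs (log2 fold change -0.61, edgeR adjusted p = 0.98), and miR-96-5p was at 0 in every freeze-dried library.

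Within the miR-148a hairpin, the 5p strand made up 3.65%, 3.39% and 1.77% of both strands' counts in the freeze-dried libraries, with exact binomial intervals of 3.10% to 4.27%, 2.95% to 3.88% and 0.215% to 6.25%. Against these, 0 of 1462 counts in not freeze-dried replicate 1 allows a share of up to 0.252% by the same interval, and 0 of 84 in replicate 2 up to 4.30%. Freeze-dried replicate 3 and not freeze-dried replicate 2 are thus too shallow to set a strand share apart.

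The other hairpins behaved unlike miR-148a. miR-152-5p had 373 counts in freeze-dried replicate 2, or 12.8% of both strands (interval 11.6% to 14.0%), and 0 counts in the other 4 libraries. Freeze-dried replicate 1 had 0 of 2718 counts, which allows a share of up to 0.136%, and not freeze-dried replicate 1 had 0 of 1099, which allows up to 0.335%. The 5p strand of miR-152 thus stood apart in 1 of the 2 deep libraries of the same group. In all, 26 of the 299 miRNAs with at least 100 counts in a deep library (8.70%) had counts in 1 library only. miR-148b-5p had 0 counts in all 5 libraries, which in the largest, 0 of 584 in freeze-dried replicate 2, allows a share of up to 0.630%.

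**Figure D5:**
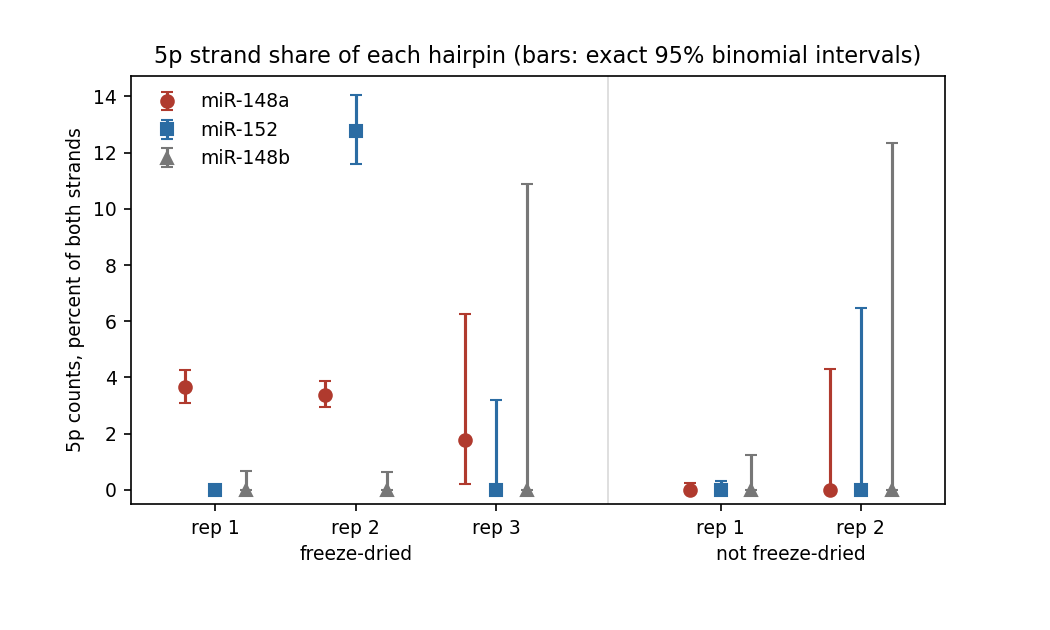
Share of the 5p strand in the counts of both strands (vertical axis, percent) for the hairpins of miR-148a, miR-152 and miR-148b in each of the 5 libraries, with exact 95% binomial intervals as bars. miR-148a lies near 3.5% in the 2 deep freeze-dried libraries and at 0 in the not freeze-dried ones, and miR-152 stands at 12.8% in freeze-dried replicate 2 and at 0 elsewhere.

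The same 7 letters, shifted by 1 base, open miR-130a-3p and miR-301a-3p, and miR-130 is known to repress Pparg, a regulator of fat cell differentiation. They are shown with the shared letters in capitals, at bases 1 to 7.
miR-130a-3p: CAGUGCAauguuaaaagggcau
miR-301a-3p: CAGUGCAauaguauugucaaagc
Of the 1679 mature entries, 7 (0.417%) opened with these letters, read on the mature strand, and 3 of these had a count. A list chosen by name, which is not the same set, held miR-130a-3p, miR-130b-3p, miR-301a-3p, miR-301b-3p and miR-721. Of these 5 strands 3 had a count and 2 were tested, 1 fitted higher and 1 lower in freeze-dried EVs, neither called. miR-130a-3p had 283, 0 and 0 counts in freeze-dried EVs, against 50 and 25 in not freeze-dried EVs. miR-301a-3p had 52, 126 and 4, against 25 and 0.

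Other miRNAs reported to repress DNA methyltransferases, 6 in number, were all tested and none was called. Freeze-dried EVs had the higher fitted level for 2 and the lower for 4, and the list's median was -0.65 on the log2 scale beside 0.02 over all 327 miRNAs. Among the lower ones, miR-29b-3p, miR-29c-3p and miR-126a-3p had wide SEs of 1.39, 2.54 and 1.17. In CPM miR-29c-3p lay lower without overlap, at 26.9, 1.16 and 0 in freeze-dried EVs, against 85.2 and 45.9 in not freeze-dried EVs. Its raw counts were 74, 3 and 0, against 87 and 6. Over all 327 tested miRNAs, 28 (8.56%) lay lower and 29 (8.87%) higher in freeze-dried EVs without overlap. The most abundant was miR-29a-3p, a repressor of Dnmt3a and Dnmt3b, at 9763, 7804 and 3663 CPM in freeze-dried EVs, against 11645 and 4781 CPM in not freeze-dried EVs. Like miR-148a-3p it was lowest in the shallow library of each group. miR-342-3p, reported to target DNMT1 in human cells, stood at 641, 893 and 1143 CPM, against 388 and 627 CPM, without overlap (log2 fold change 0.81, SE 0.56, edgeR adjusted p = 0.98).

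The adipogenesis-linked list had 9 tested members and none called. Freeze-dried EVs had the higher fitted level for 5 and the lower for 4, and the list's median was 0.09 on the log2 scale beside 0.02 over all tested miRNAs. Its most abundant members, miR-21a-5p and miR-143-3p, had mean levels far above the family's, at 68430.2 and 53606 CPM over the 5 libraries. miR-143-3p, which promotes fat cell differentiation, stood at 46910, 48534 and 34909 CPM in freeze-dried EVs, against 60808 and 76871 CPM in not freeze-dried EVs, without overlap (log2 fold change -0.66, SE 0.26, edgeR adjusted p = 0.98).

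The guide strands did not resemble one another most closely in their pattern across the libraries. Likeness was measured as the root mean square difference of centred log2 CPM over the 5 libraries, against 191 other tested miRNAs whose mean reached 100 CPM. For miR-148a-3p the nearest were miR-574-3p at 0.20, miR-351-5p at 0.27 and miR-129-5p at 0.35, beside a median of 0.93 over all 191. miR-152-3p came 6th in that order at 0.39 and miR-148b-3p 39th at 0.65.

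For miR-152-3p the nearest were miR-34b-3p at 0.22, miR-574-3p at 0.24 and miR-27a-3p at 0.25, beside a median of 0.81. miR-574-3p, near to both, stood at 1340, 1445 and 586 CPM in freeze-dried EVs, against 1344 and 566 CPM in not freeze-dried EVs, low in the same shallow libraries. For miR-148b-3p the nearest were miR-31-5p at 0.093, miR-125b-1-3p at 0.11 and miR-24-3p at 0.15, beside a median of 0.66. miR-31-5p stood at 4231, 4289 and 3328 CPM in freeze-dried EVs, against 5857 and 3954 CPM in not freeze-dried EVs, with the same library highest as for miR-148b-3p. These distances share libraries and depth and are given as a description.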

How the data were processed

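The authors deposited 1 table of raw counts, with 1966 mature miRNAs as rows and the 5 libraries as columns. Tools named in the submitters' processing notes, without their roles, are Bowtie 1.1.2, featureCounts 1.5.0-p1, cutadapt 2.3, FastQC and bcl2fastq 2.20, beside the build GRCm38. Which miRNA annotation was used, and how multiple matches were treated, is not given in the sources used here.

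From these counts, CPM were computed per library total times its TMM factor. Groups were compared in edgeR 4.0.16 (R 4.3.3; quasi-likelihood F test, robust, filterByExpr, 327 of 517 miRNAs with a count kept), with Benjamini-Hochberg adjustment over all 327 and 0.05 as threshold. An SE is the log2 fold change over the square root of F. DESeq2 1.42.0, limma-voom (limma 3.58.1), other scalings and filters, each library left out, replicate blocks and depth terms were alternatives. Binomial intervals are exact (scipy 1.17.1), at 95%. Per library, the counts behind the family ranged from 167 to 9087.

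The members and lists were chosen with earlier results of these data known. Named miRNAs are the members, the opposite strands, the 3 nearest in pattern to each guide strand, and in each list the called members or else the 2 most abundant. miR-29b-3p, miR-29c-3p and miR-126a-3p are named for their SEs. Marker lists are reported by their sums and the members at 0, and the mesenchymal list also by its fits. miR-203-3p, miR-182-5p, miR-183-5p and miR-96-5p, the 5p strands of miR-130a, miR-130b and miR-301a, and the division into deep and shallow libraries, were chosen after values were seen.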

Additional observations from a re-analysis of the deposited data

How the results depend on the processing

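The comparison by depth class and the pooled ratio of miR-148a-5p were added after the values had been seen. No family member was called under any alternative of the comparison between groups, with adjusted p-values from 0.76 upward. The log2 fold change of miR-148b-3p stayed negative under all 15 alternatives, which reuse the same 5 libraries. Over the libraries left out in turn it ranged from -0.56 to -0.024. The sign of miR-148a-5p is set by its 0 counts in both not freeze-dried libraries, so no alternative tests it. That strand failed the filter when freeze-dried replicate 1 or 2 was left out, and at 10 counts in every library. miR-148a-3p was positive in 14 of 15 and miR-152-3p in 13 of 15. The values ranged over the libraries left out in turn from -0.018 to 1.23 for miR-148a-3p and from -0.34 to 1.12 for miR-152-3p, which was also negative, at -0.14, in the 3 deep libraries alone. With the replicate number as a block they were 0.90, 0.55, -0.25 for miR-148b-3p and 9.29 for miR-148a-5p. Over all miRNAs the count called lower, 0, became 4 with this block and 1 in the 3 deep libraries. The cause was not tested. The numbers form 2 pairs, with deviations correlated at 0.17 and -0.12, so they are not shown to pair the samples. Scaling to the library total alone shifted the median log2 fold change of all miRNAs by -0.11. Depth limits the strand shares of the shallow libraries most.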

Other observations

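The hairpins of miR-130 and miR-301, whose 3p strands share letters with the family's seed, were counted on the strand opposite the listed one in some cases. These values were looked at after the 3p strands had been seen. miR-130b-5p had 516, 321 and 45 counts in freeze-dried EVs, against 33 and 3 in not freeze-dried EVs, while miR-130b-3p had 0, 0 and 2, against 0 and 0. Scaled for depth, miR-130b-5p averaged 189 CPM in freeze-dried EVs and 27.6 CPM in not freeze-dried EVs. It was not called (log2 fold change 2.75, SE 1.52, edgeR adjusted p = 0.98). The 5p strand made up 95.7% of both strands in freeze-dried replicate 3 (exact binomial interval 85.5% to 99.5%). For miR-301a the 5p strand made up 66.0% in freeze-dried replicate 1 (57.9% to 73.5%) and 0 of 126 counts in freeze-dried replicate 2, against 70.6% in not freeze-dried replicate 1 (59.7% to 79.98%). For miR-130a the 5p strand had 0 counts in all 5 libraries beside the 3p counts given above.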
